A study of Rattus norvegicus with 12 samples.

Results

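The genes described here are the ligands and receptors of the fibroblast growth factor (FGF), platelet-derived growth factor (PDGF), neuregulin and epidermal growth factor (EGF) families in rat heart. The families were picked with earlier results of these data known, their members were then found by symbol alone, and the symbols matched 46 of the 30560 genes counted. Of these, 35 had at least 10 reads in total over the 12 hearts and were tested, together with all other genes that did, 18182 in all. The remaining 11 fell under that minimum. The symbol pattern also took in Fgfr1op2, a gene named as a fusion partner of FGF receptor 1, which is counted among the 46 but is no growth factor or receptor.

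RNA was sequenced from sections, 20 µm thick, of the fixed and paraffin-embedded middle region of the left ventricle of male Wistar rats that had surgery at 7 weeks of age. There were 3 groups of 4 rats: Sham rats (12, 17, 32 and 38), whose chest was opened without a coronary suture, MI rats (36, 57, 61 and 89), and MI+UA rats (29, 58, 64 and 66). In both infarcted groups the left anterior descending coronary artery was permanently tied, with an infarct near 40% of the left ventricular area as the aim. The MI+UA rats received urolithin A, a gut-microbial metabolite of ellagitannins, by daily gavage for 8 weeks at 50 mg/ml, and the Sham and MI rats received its carboxymethylcellulose vehicle. The sources differ on the dose per body weight and on the day of the first dose. Rat 66 carries the urolithin A label, but another listing of the animals places that number with the vehicle-treated rats, so results that rest on it are also given without it and with it counted in MI.

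FGFs signal through tyrosine kinase receptors that bind them together with heparan sulphate chains, while the FGF homologous factors stay inside the cell and bind voltage-gated sodium channels. Neuregulin 1 is made mainly by cardiac endothelial cells and acts on cardiomyocytes through the receptor ErbB4, which pairs with ErbB2, a receptor without a known ligand of its own. EGF-type ligands such as transforming growth factor alpha are cut from the cell surface and bind EGFR. PDGFs act mostly on fibroblasts, pericytes and smooth muscle cells, and the C and D forms must be cleaved before they can bind.

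Between 6228706 and 19031695 reads per heart fell on genes, so 1 library's floor of 3 reads lay between 0.169 and 0.505 reads per 1000000 (CPM). Reads that the counter gave to no single gene were 51.7% to 53.1% in Sham, 55.2% to 56.7% in MI and 52.8% to 57.1% in MI+UA rats, so Sham and MI did not overlap in this share, and its part in the results below was not tested. CPM is used below as a level per library, on library sizes scaled by the trimmed mean of M-values (TMM), and is compared between hearts and not between genes, since transcript lengths were not used. Of the 9 cardiomyocyte markers found in the files, 8 were lower in MI than in Sham, with summed levels of 36730 to 43103 CPM against 52290 to 58971 CPM, and no marker was at 0. In the same comparison 8 of 10 fibroblast and scar markers were higher (2310 to 3752 against 1180 to 1498 CPM), as were 9 of 10 macrophage and other leukocyte markers (325 to 473 against 174 to 203 CPM) and 4 of 10 smooth muscle and pericyte markers, whose sums overlapped. Of 8 Schwann cell markers tested 2 were higher (82.2 to 121 against 58.8 to 63.97 CPM), with Ncmap at 0 in every rat. Of 8 endothelial markers 1 was lower, with overlapping sums, and no epicardial or adipocyte marker passed the test. These sections mix cell types, so fewer cells of a type and less RNA per cell cannot be told apart, and the part of these marker shifts in the results below was not tested.

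In infarcted hearts given vehicle, 5 members were higher and 2 lower than in Sham hearts. The higher ones were Nrg1, Fgfr1, Egfr, Pdgfd and Fgf14, and the lower ones were Erbb4 and Fgf13 (edgeR quasi-likelihood test, adjusted p under 0.05 over all 18182 genes). The 5 higher members were 14.3% of the 35 tested, beside 5.82% of all genes tested, and the 2 lower members were 5.71%, beside 5.53% of all genes. The median log2 fold change over the tested members was 0.28, and over all genes tested it was 0.026. Of the 25 members with a mean of at least 1 CPM, 10 had MI and Sham rats that did not overlap (40%), against 19.5% of all genes at that level. With rat 66 counted in MI, 6 of the 25 were apart (24%, against 15% of all genes), since Nrg1, Erbb4, Fgf13 and Fgf1 then overlapped. DESeq2 called the same 7 members. Each rat was also left out in turn, and 5 of the calls, those of Nrg1, Erbb4, Fgfr1, Egfr and Fgf13, held in all 12 such fits. Of these fits, those without an MI+UA rat left both compared groups whole.

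**Figure D1:**
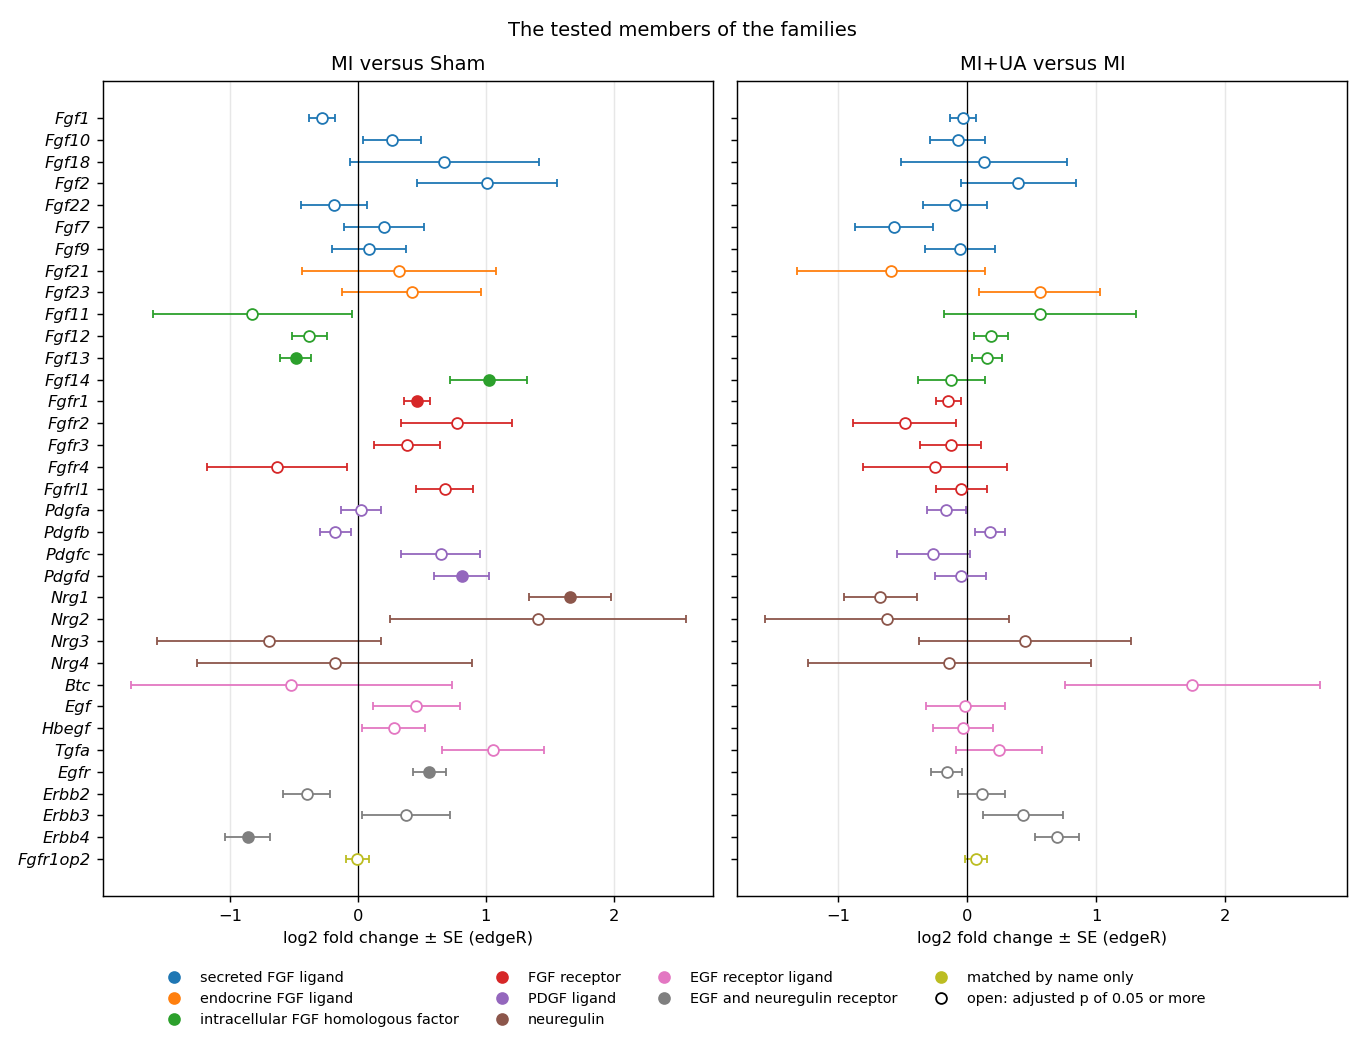
Log2 fold changes (points) with their standard errors (bars) for the 35 tested members, grouped by role, in MI versus Sham on the left and MI+UA versus MI on the right. Filled points passed an adjusted p of 0.05: 7 do so on the left, from Erbb4 at -0.86 to Nrg1 at 1.66, and 0 on the right.

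Neuregulin 1 and its receptor ErbB4 moved in opposite directions after infarction. Nrg1 was at 5.65, 10.2, 3.70 and 5.37 CPM in the Sham rats 12, 17, 32 and 38. It reached 15.7, 12.7, 22.6 and 27.2 CPM in the MI rats 36, 57, 61 and 89. Every MI rat lay above every Sham rat, with the log2 fold change at 1.66 (SE 0.32, adjusted p = 0.00158 by edgeR), a 3.16-fold higher level. Leaving out single rats kept this value between 1.45 and 1.99.

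The receptor gene Erbb4 showed the reverse order. Its level was 11.2, 8.52, 9.26 and 9.42 CPM in the Sham rats and 5.56, 6.74, 4.05 and 5.05 CPM in the MI rats. No MI rat reached the lowest Sham rat, and the fall was 0.86 on the log2 scale (SE 0.18, adjusted p = 0.00274 by edgeR), to 0.550 of the Sham level. This call did not hold once rat 66 was moved to MI, which gave -0.62 with an adjusted p of 0.0541 by edgeR.

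On average the treated hearts lay between the other groups for both genes, but neither difference from MI passed the test over all genes. Nrg1 was at 18.8, 15.4, 8.66 and 6.53 CPM in the MI+UA rats 29, 58, 64 and 66. Of these, 2 lay inside the MI range and 2 inside the Sham range, with a log2 fold change of -0.67 from MI (SE 0.28, unadjusted p = 0.0267 and adjusted p = 1 by edgeR). Without rat 66 the value was -0.43 with an unadjusted p of 0.11 by edgeR, and with rat 66 counted in MI it was -0.20. Erbb4 was at 8.11, 6.55, 10.2 and 9.40 CPM in the same treated rats. Of the 4, 3 lay above the highest MI rat, and the lowest of them, rat 58, fell just under it. Its log2 fold change from MI was 0.70 (SE 0.17, unadjusted p = 0.000649 and adjusted p = 1 by edgeR), and DESeq2 gave an adjusted p of 0.927. Without rat 66 it was 0.64 (unadjusted p = 0.00321 by edgeR), and with rat 66 counted in MI it was 0.40 (unadjusted p = 0.0785 by edgeR). Among the infarcted hearts, rat 66 also had the highest summed cardiomyocyte markers, at 50529 CPM against 36730 to 43103 CPM in the other 7.

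**Figure D2:**
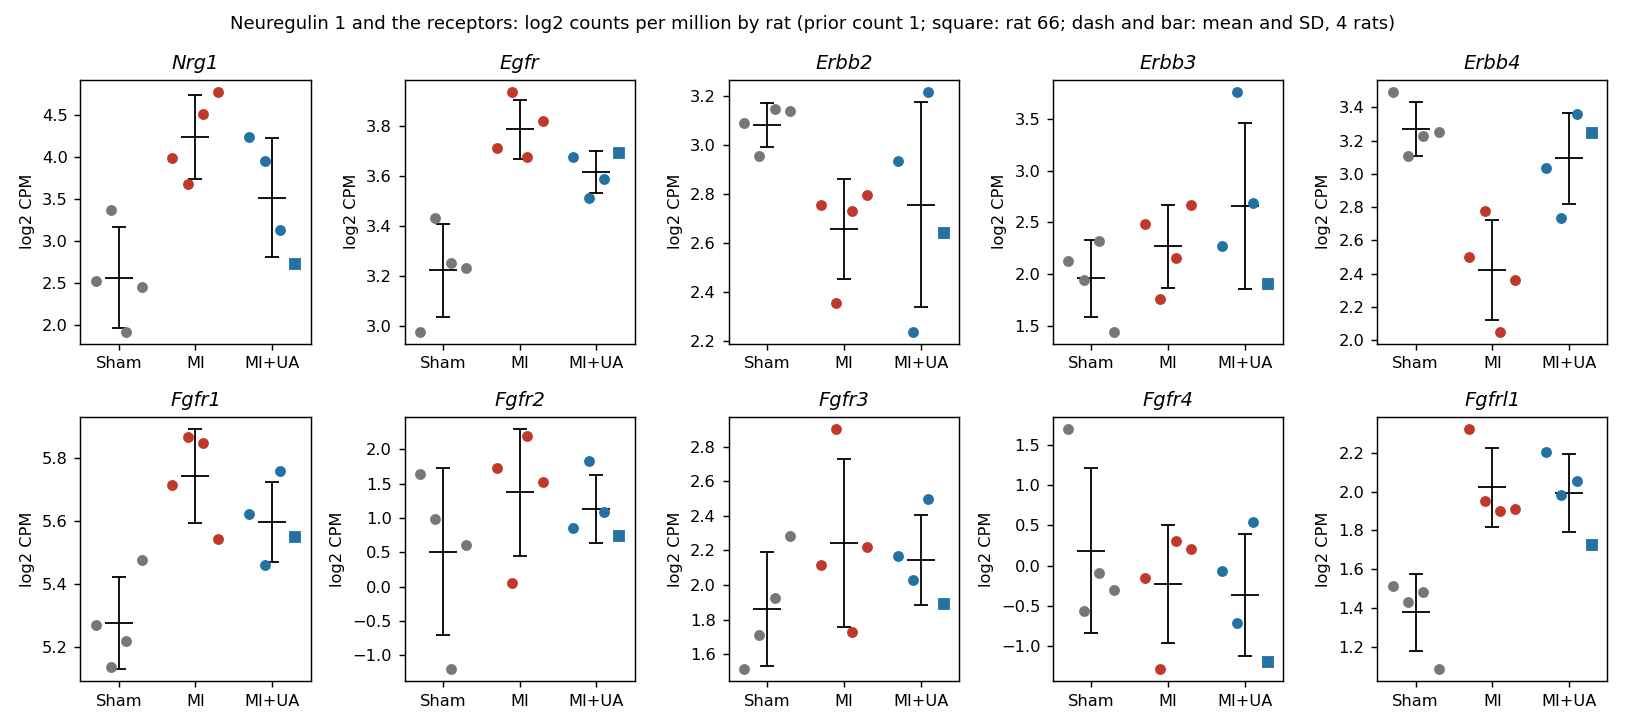
Log2 CPM of Nrg1 and of the 9 receptor genes in each rat (points, with a square for rat 66), by group, with the mean and SD of 4 rats. Nrg1 rises from Sham to MI while Erbb4 falls, 2 treated rats lie within the MI range and 2 within the Sham range for Nrg1, and rat 58 stands high for Erbb3.

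The other receptors of this family differed in their order. Egfr, the receptor for EGF and transforming growth factor alpha, was at 7.78, 10.7, 9.43 and 9.30 CPM in Sham and at 13.0, 15.2, 12.7 and 14.01 CPM in MI rats. The groups were apart, with a log2 fold change of 0.56 (SE 0.13, adjusted p = 0.00610 by edgeR). In MI+UA rats Egfr was at 12.7, 11.3, 11.9 and 12.8 CPM, above every Sham rat and across the lower end of the MI rats (log2 fold change from MI -0.16, SE 0.12).

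Erbb2, the partner of ErbB4, was at 8.41, 7.65, 8.75 and 8.70 CPM in Sham, at 6.65, 5.02, 6.54 and 6.84 CPM in MI, and at 7.54, 4.62, 9.20 and 6.13 CPM in MI+UA rats. Its Sham and MI rats did not overlap, but the log2 fold change of -0.40 (SE 0.18) gave an adjusted p of 0.183 by edgeR. The treated rats spanned the range of both other groups. Erbb3, whose protein binds neuregulins but has little kinase activity and which Schwann cells are known to use, was at 4.27, 3.75, 4.88 and 2.62 CPM in Sham and at 5.48, 3.29, 4.36 and 6.27 CPM in MI. In MI+UA it was at 4.74, 13.5, 6.36 and 3.66 CPM, where the second value belongs to rat 58 and lies above all others. The summed Schwann cell markers were also highest in rat 58, at 192 CPM against 58.8 to 121 CPM in the other 11 rats. Without rat 58 the log2 fold change of Erbb3 from MI went from 0.43 to -0.06.

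Among the ligands of EGFR, transforming growth factor alpha had the clearest order of groups. Tgfa was at 1.00, 1.01, 0.673 and 0.596 CPM in Sham, at 1.61, 2.51, 1.14 and 1.79 CPM in MI, and at 1.54, 3.60, 1.89 and 1.52 CPM in MI+UA rats. All 8 infarcted rats lay above all 4 Sham rats. The log2 fold change was 1.06 in MI versus Sham (SE 0.40, adjusted p = 0.102 by edgeR) and 1.30 in MI+UA versus Sham (SE 0.39, adjusted p = 0.0399). These levels rest on 191 reads in all. Hbegf, which encodes heparin-binding EGF-like growth factor, ranged from 4.33 to 12.4 CPM with no order among the groups (MI versus Sham 0.28, SE 0.25), and Egf ranged from 0.835 to 3.08 CPM (0.46, SE 0.34). Betacellulin (Btc) had 20 reads in total, amphiregulin (Areg) 9, epiregulin (Ereg) 2 and epigen (Epgn) 1, too few to compare.

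The remaining neuregulin genes had means between 0.139 and 0.309 CPM, around the floor of 1 library. Nrg2 had 16 reads over the 12 hearts, Nrg3 27 and Nrg4 31, and none of them passed the test in any comparison.

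Among the FGF receptor genes, Fgfr1, which encodes the main FGF receptor of mesenchymal cells, passed the test. It was at 38.5, 35.1, 37.2 and 44.5 CPM in Sham and at 52.3, 58.2, 57.5 and 46.5 CPM in MI rats. Rat 89, the lowest of the MI rats, still lay above rat 38, the highest Sham rat, with the log2 fold change at 0.46 (SE 0.10, adjusted p = 0.00418 by edgeR). MI+UA rats had 49.1, 43.9, 54.0 and 46.7 CPM, which overlapped both groups (log2 fold change from MI -0.14, SE 0.10). Fgfrl1, a receptor without the kinase domain, was at 2.76, 2.598, 2.69 and 2.03 CPM in Sham, at 4.90, 3.76, 3.63 and 3.67 CPM in MI, and at 4.51, 3.85, 4.06 and 3.21 CPM in MI+UA rats. Both infarcted groups were above every Sham rat, with a log2 fold change of 0.68 in MI versus Sham (SE 0.22) that just missed the threshold (adjusted p = 0.0519 by edgeR) and passed it with edgeR's own filter on low counts (0.0383). It did not pass with DESeq2 (0.0731), with only the 2 groups in the fit (0.0824), with a minimum of 1 read (0.0809) or with rat 66 counted in MI (0.0727).

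The other 3 FGF receptors did not pass the test. Fgfr2 was at 3.01, 1.88, 0.337 and 1.43 CPM in Sham, at 3.22, 0.941, 4.46 and 2.77 CPM in MI, and at 1.71, 3.47, 2.03 and 1.58 CPM in MI+UA (MI versus Sham 0.77, SE 0.43, adjusted p = 0.299 by edgeR). Fgfr3 was at 2.76, 3.18, 3.70 and 4.77 CPM in Sham, at 4.24, 7.37, 3.22 and 4.56 CPM in MI, and at 4.40, 3.98, 5.55 and 3.60 CPM in MI+UA (0.38, SE 0.25, adjusted p = 0.393). The groups overlapped for both, and both values moved with single rats, to between 0.48 (without rat 32) and 1.22 (without rat 12) for Fgfr2 and down to 0.16 (without rat 57) for Fgfr3. Fgfr4, which encodes a receptor for some endocrine FGFs, was at 3.14, 0.577, 0.842 and 0.715 CPM in Sham, at 0.804, 0.314, 1.14 and 1.06 CPM in MI, and at 0.857, 0.514, 1.35 and 0.338 CPM in MI+UA. The first Sham value, that of rat 12, was more than the rest of its group together, and without it the log2 fold change of Fgfr4 in MI versus Sham went from -0.63 to 0.28. Fgfr1op2 stayed between 32.8 and 40.6 CPM (-0.0044, SE 0.09).

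Of the 14 secreted FGF ligand genes, 7 were tested and none passed the test in MI versus Sham. Fgf1, which encodes acidic FGF, a factor released without a signal peptide, was at 212, 234.4, 228 and 229 CPM in Sham and at 208, 160, 180 and 196 CPM in MI. Its groups did not overlap, with a small difference of -0.28 on the log2 scale (SE 0.10, adjusted p = 0.0847 by edgeR). The adjusted p was 0.0308 without rat 66, the only 1 of 12 fits with a rat left out that passed, 0.0269 with only the 2 groups in the fit, and 0.119 with rat 66 counted in MI (log2 fold change -0.22). In MI+UA rats it was at 172, 160, 173 and 225 CPM, and 3 of the 4 lay under every Sham rat. The fourth was rat 66, and without it the log2 fold change in MI+UA versus Sham went from -0.31 (adjusted p = 0.0617 by edgeR) to -0.43 (adjusted p = 0.00345). With rat 66 kept, Fgf1 was also called in MI+UA versus Sham by DESeq2 (adjusted p = 0.0310), with only the 2 groups in the fit, with edgeR's own filter and with a minimum of 1 read. Fgf2, basic FGF, had 109 reads in total and ranged from 0.168 to 1.62 CPM, with a log2 fold change of 1.01 in MI versus Sham (SE 0.55, adjusted p = 0.277). Fgf10, Fgf7, Fgf22 and Fgf9, paracrine ligands, had means of 4.07, 3.61, 3.01 and 2.73 CPM and log2 fold changes between -0.18 and 0.27, and Fgf18 had 76 reads in total. Reads were not detected in any rat for Fgf3, Fgf4, Fgf8 and Fgf20, nor for the endocrine ligand Fgf19, which allows a level of up to 0.0247 CPM over the 12 libraries together. Fgf5 had 9 reads, Fgf6 had 3 and Fgf17 had 1. The endocrine ligands Fgf21 and Fgf23 had 41 and 100 reads, with adjusted p-values of 0.858 and 0.714 by edgeR in MI versus Sham.

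The FGF homologous factors were split in direction. Fgf13, which encodes a partner of cardiac sodium channels, was at 22.3, 26.0, 24.4 and 22.2 CPM in Sham and at 16.9, 18.3, 16.7 and 15.97 CPM in MI. No MI rat reached the Sham range, and the fall was 0.49 on the log2 scale (SE 0.12, adjusted p = 0.0110 by edgeR). Of the MI+UA rats, at 17.03, 18.2, 15.97 and 23.5 CPM, 3 lay within the range of MI and rat 66 lay within that of Sham. Fgf14, known mainly from neurons, was at 2.01, 2.598, 0.842 and 1.19 CPM in Sham and at 2.71, 3.61, 3.94 and 3.50 CPM in MI. All MI rats lay above all Sham rats (log2 fold change 1.02, SE 0.30, adjusted p = 0.0300 by edgeR), and this call held in 8 of 12 fits with 1 rat left out. Among the rats compared, the call held without rat 12, 17, 36 or 57. It was lost without rat 32, 38, 61 or 89, with adjusted p-values of up to 0.108 by edgeR. In MI+UA rats Fgf14 was at 3.77, 3.60, 2.44 and 2.64 CPM, 1 of them within the Sham range and 1 just above it. Fgf12 was at 16.1 to 21.9 CPM in Sham and 11.2 to 16.6 CPM in MI (-0.38, SE 0.14, adjusted p = 0.0823), and Fgf11 had 82 reads in total.

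Of the 4 PDGF ligand genes, Pdgfd passed the test in MI versus Sham by edgeR. Pdgfd, whose product binds PDGF receptor beta, was at 5.39, 3.75, 7.74 and 4.29 CPM in Sham, at 7.02, 9.10, 10.4 and 10.3 CPM in MI, and at 7.26, 12.1, 8.26 and 8.44 CPM in MI+UA rats. Sham rat 32 overlapped the lowest rat of each infarcted group. The log2 fold change was 0.81 in MI versus Sham (SE 0.22, adjusted p = 0.0172 by edgeR) and 0.76 in MI+UA versus Sham (SE 0.22, adjusted p = 0.0282). The call in MI versus Sham held in 8 of 12 fits with 1 rat left out. Among the rats compared, it held without rat 12, 32, 36 or 57. It was lost without rat 17, 38, 61 or 89, with adjusted p-values of up to 0.0709 by edgeR. Pdgfc ranged from 1.00 to 3.54 CPM in Sham and from 2.35 to 3.29 CPM in MI (0.65, SE 0.31, adjusted p = 0.211). Its highest value was that of Sham rat 32, and Pdgfc was called when that rat was left out. Pdgfa and Pdgfb, the forms that are active without extracellular cleavage, ranged from 7.53 to 13.6 CPM and from 24.0 to 36.5 CPM over all rats, with log2 fold changes of 0.02 (SE 0.15) and -0.18 (SE 0.12) in MI versus Sham.

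**Figure D3:**
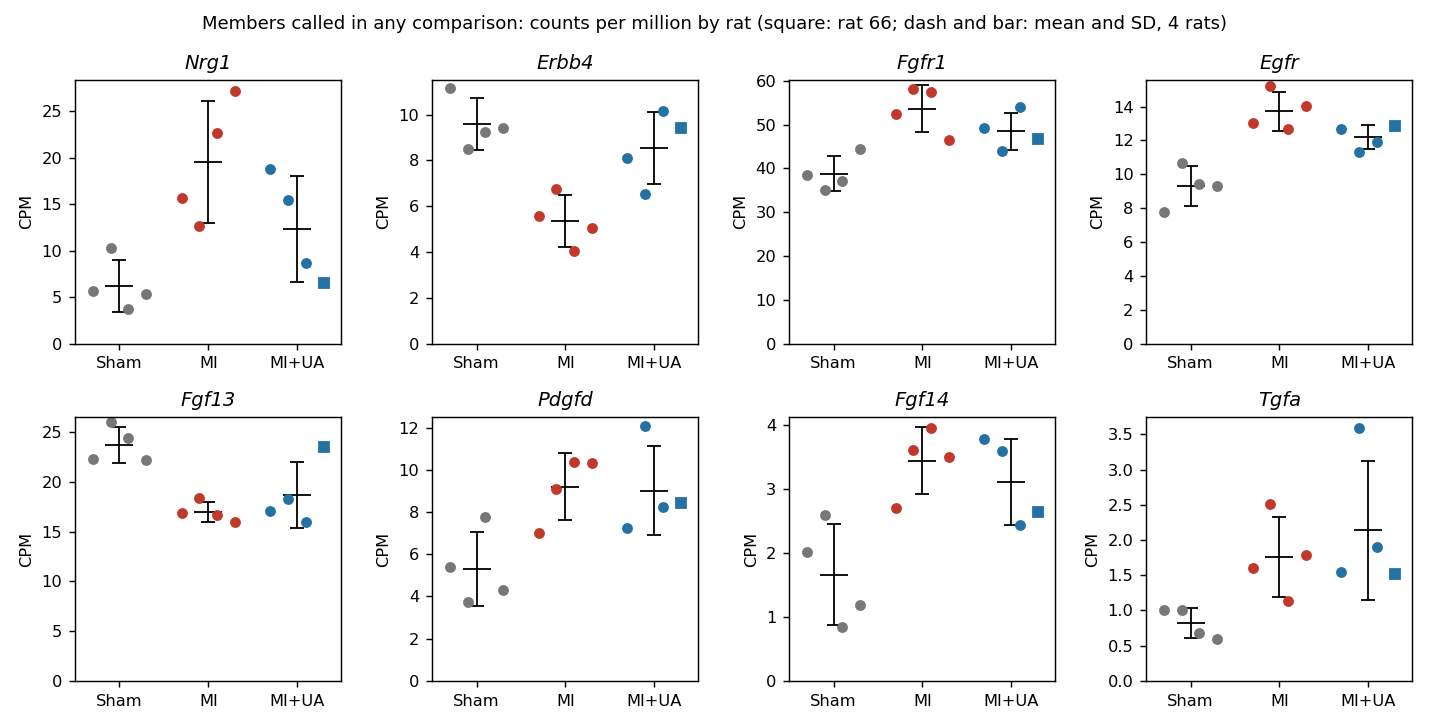
CPM of the 8 members called in any comparison in each rat (points, with a square for rat 66), by group, with the mean and SD of 4 rats. MI rats lie above all Sham rats for Nrg1, Fgfr1, Egfr, Fgf14 and Tgfa and under them for Erbb4 and Fgf13, while Pdgfd overlaps. In MI+UA, rat 66 is the lowest for Nrg1 and the highest for Fgf13.

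No member was called in MI+UA versus MI. By edgeR 0 of the 35 tested members passed an adjusted p of 0.05, as did 0% of all genes (the smallest adjusted p over all 18182 genes was 1), and DESeq2 also called 0 members. At an unadjusted p under 0.05 the members were Nrg1 and Erbb4, 2 of 35 (5.71%), beside 3.79% of all genes. By DESeq2 the unadjusted p was 0.111 for Nrg1 and 0.000306 for Erbb4. With rat 66 counted in MI neither was under 0.05 by edgeR (unadjusted p = 0.537 and 0.0785), while Erbb3 (0.0129) and Fgf1 (0.042) were. Without rat 66, Erbb4 stayed under 0.05 (unadjusted p = 0.00321 by edgeR), Nrg1 did not (0.11) and Erbb3 did come under it (0.0325). For no member with a mean of at least 1 CPM were the MI+UA and MI rats apart, beside 2.14% of all genes at that level. A missed threshold does not show that the levels were alike. None of the cell type markers passed the test in this comparison.

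In MI+UA versus Sham, 2 members were called, Pdgfd and Tgfa, both higher (5.71% of those tested, beside 5.16% of all genes), and 0 were lower, beside 4.27% of all genes. Beside these calls, 8 of 9 cardiomyocyte markers were lower in MI+UA than in Sham (summed levels 38613 to 50529 CPM), and 8 of 10 fibroblast and scar (2347 to 3813 CPM), 9 of 10 leukocyte (276 to 505 CPM) and 5 of 8 Schwann cell markers (93.4 to 192 CPM) were higher. Of the smooth muscle and pericyte markers 1 was higher and 1 lower, and 1 endothelial and 1 adipocyte marker were lower. With 1 rat left out, the call of Pdgfd held in 8 of 12 fits (lost without rat 12, 17, 38 or 58) and that of Tgfa in 6 of 12 (lost without rat 12, 17, 32, 38, 58 or 64). These fits include those without an MI rat, which is in neither group compared. Among the rats compared, Pdgfd held without rat 29, 32, 64 or 66, and Tgfa only without rat 29 or 66. This comparison shares its Sham rats with MI versus Sham, so the values of each are given side by side rather than compared. For the members called in MI versus Sham, the log2 fold changes in MI+UA versus Sham were 0.98 for Nrg1 (SE 0.33), 0.32 for Fgfr1 (SE 0.10), 0.40 for Egfr (SE 0.13) and 0.90 for Fgf14 (SE 0.30). They were -0.17 for Erbb4 (SE 0.17) and -0.33 for Fgf13 (SE 0.12). None of these 6 passed, with adjusted p-values between 0.0515 and 0.634 by edgeR. Under other settings with rat 66 kept, Nrg1 was called with only the 2 groups in the fit and with a minimum of 1 read, Fgfr1 with DESeq2, with edgeR's own filter and with a minimum of 1 read, and Egfr with edgeR's own filter. Without rat 66, 6 members were called in MI+UA versus Sham, the same 2 with Nrg1 (log2 fold change 1.23, adjusted p = 0.00830), Fgf1, Fgf13 and Erbb3, beside 10.4% of all genes in that fit. The same 6 were called with rat 66 counted in MI, beside 10.1% of all genes.

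The deposited counts do not hold sequence, so the promoters of called members were read from RefSeq (rat build GRCr8, which is not the build of the counts). The table held a promoter for 38 of the 46 members and 5 of the 7 called in MI versus Sham, and Nrg1 and Fgfr1 were not among them. Shown are the 250 bases before the annotated gene start of the called members with the smallest p and 1 entry each: Erbb4 at chr9:78045607-78045856 (minus strand), Egfr at chr14:95378376-95378625 (plus strand) and Fgf13 at chrX:142423537-142423786 (minus strand). They are printed as a description of their letters, and a link of base composition to the direction of change was not tested. Each runs 5′ to 3′ on the strand of its gene, and capitals mark matches, on either strand, to 1 of the motifs named after them.
Erbb4: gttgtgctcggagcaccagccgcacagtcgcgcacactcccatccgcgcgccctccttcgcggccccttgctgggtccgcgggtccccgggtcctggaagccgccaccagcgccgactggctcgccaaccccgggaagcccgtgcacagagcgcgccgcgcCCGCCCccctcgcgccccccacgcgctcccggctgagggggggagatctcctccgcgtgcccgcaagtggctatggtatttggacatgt
Egfr: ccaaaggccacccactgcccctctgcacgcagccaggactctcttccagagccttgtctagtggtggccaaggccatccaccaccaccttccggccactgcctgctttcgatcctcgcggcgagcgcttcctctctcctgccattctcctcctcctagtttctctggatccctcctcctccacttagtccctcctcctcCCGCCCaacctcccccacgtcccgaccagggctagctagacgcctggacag
Fgf13: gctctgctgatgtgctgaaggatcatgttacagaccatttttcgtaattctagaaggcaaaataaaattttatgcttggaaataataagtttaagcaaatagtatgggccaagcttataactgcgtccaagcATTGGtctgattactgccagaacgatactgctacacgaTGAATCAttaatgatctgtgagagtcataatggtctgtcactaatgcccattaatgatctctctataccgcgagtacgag
The share of G and C was 73.6% for Erbb4, 63.6% for Egfr and 38.8% for Fgf13. The motifs searched were the GC box (GGGCGG), the CCAAT box (CCAAT), the TATA box (TATAAA), the AP-1 site (TGANTCA) and a site of the EGR factors (GCGNGGGCG). Both receptor windows held 1 GC box, read on the opposite strand, and 30.5% of the 33469 promoter windows of the same length held at least 1. The Fgf13 window held 1 CCAAT box, on the opposite strand (34% of all windows), and 1 AP-1 site (6.34%). No TATA box (12.9% of all windows) or EGR site (4.29%) was in the 3 windows. A match is a description of letters only, and other starts of these genes were not examined.

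Ratios between the members of 6 pairs were taken within each rat, as differences of log2 CPM, so that gene length and library size cancel between hearts. None of the 18 tests (6 pairs in 3 comparisons) passed an adjusted p of 0.05, and the smallest adjusted p was 0.309 (exact permutation test, two-sided, 4 rats against 4, where 0.0286 is the smallest p possible before adjustment). The log2 ratio of Erbb4 to Erbb2, the pair that receives neuregulin 1 in cardiomyocytes, was 0.19 ± 0.15 in Sham (SD, n = 4), -0.24 ± 0.47 in MI and 0.34 ± 0.25 in MI+UA. MI rat 57 was at 0.42 while the other 3 MI rats were at -0.26, -0.68 and -0.43, and the difference between MI+UA and MI was 0.57 (exact permutation p = 0.0857, adjusted p = 0.309). That difference was 0.48 without rat 66, which had the highest ratio of its group at 0.61, and 0.31 with rat 66 counted in MI.

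The ratio of Pdgfb to Pdgfd, both ligands of PDGF receptor beta, had a log2 mean of 2.55 ± 0.51 in Sham (SD, n = 4), 1.54 ± 0.41 in MI and 1.76 ± 0.48 in MI+UA. MI rats were 1.01 under Sham on the log2 scale (exact permutation p = 0.0571), with an overlap between Sham rat 32 at 1.97 and MI rat 36 at 2.13. For Fgf1 to Fgf2 no level is given, since Fgf2 had 3 reads or fewer in Sham rats 12, 32 and 38 and in MI rat 57, where the ratio depends on the prior count, and none of its 3 tests passed after adjustment. The ratio of Pdgfa to Pdgfc had a log2 mean of 2.58 ± 0.72 in Sham, 1.93 ± 0.13 in MI and 2.01 ± 0.20 in MI+UA, where Sham rat 32 lay at 1.51 and the rest of its group between 2.79 and 3.11. Fgfr4 to Fgfr1 and Hbegf to Egfr overlapped widely, with exact permutation p-values of 0.286 or more in all 3 comparisons, and Fgfr4 had 2 reads in MI rat 57.

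**Figure D4:**
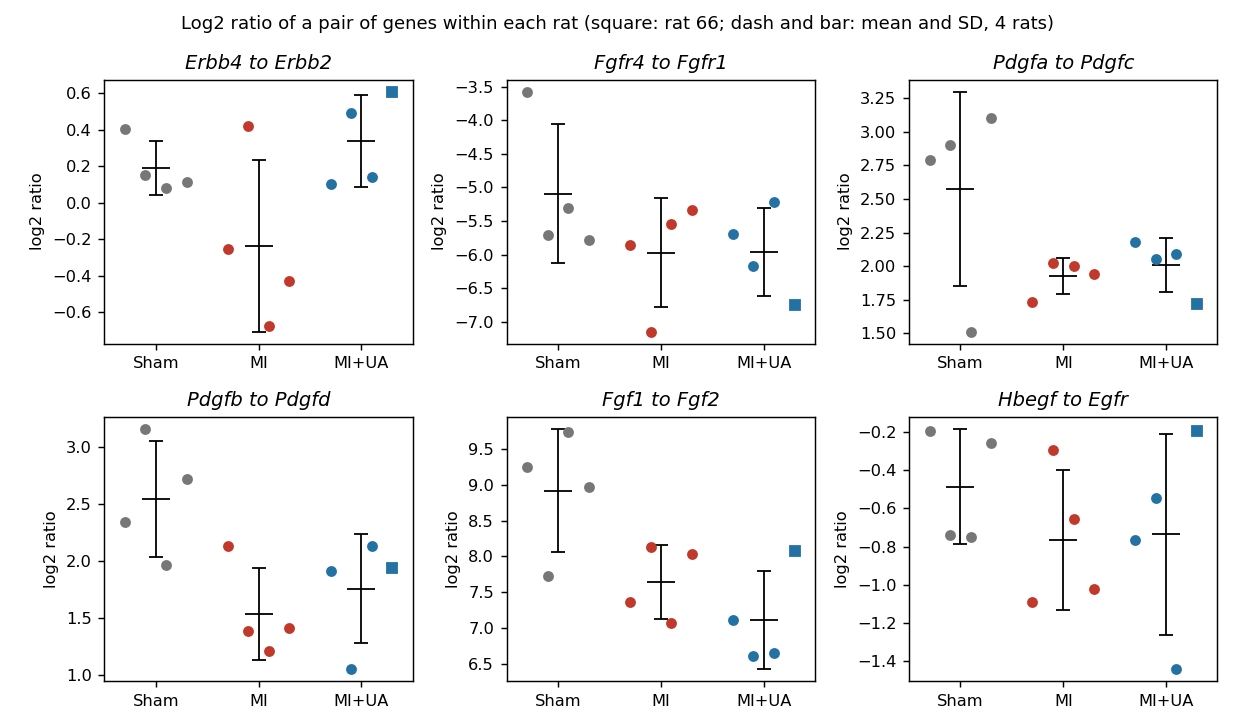
Log2 ratio of each of the 6 pairs of genes within each rat (points, with a square for rat 66), by group, with the mean and SD of 4 rats. The groups overlap in every pair, and MI rats are lowest on average in all pairs but Fgf1 to Fgf2.

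The genes around the members, those that process, bind and pass on these signals, were read from 6 lists holding 112 symbols, of which 109 were found and 105 tested. In MI versus Sham 26 of the 105 were higher (24.8%, beside 5.82% of all genes) and 6 lower (5.71%, beside 5.53%). The lists were chosen with earlier results of these data known, so these shares are a description and no test of the lists. None passed the test in MI+UA versus MI by edgeR, where 5 of the 105 had an unadjusted p under 0.05, beside 3.79% of all genes.

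Of 11 genes of PDGF reception and processing, 6 were higher in MI than in Sham and none lower, with a median log2 fold change of 0.49. Pdgfrb, PDGF receptor beta, went from 86.2 ± 7.91 CPM (SD, n = 4) to 148 ± 12.02 CPM (log2 fold change 0.78, SE 0.10). Pdgfra, PDGF receptor alpha, went from 93.5 ± 4.34 to 131 ± 22.1 CPM (0.49, SE 0.11). Lrp1, an endocytic receptor that associates with PDGF receptor beta, had a log2 fold change of 0.98 (SE 0.10), and Pcsk5, a proprotein convertase, of 0.86 (SE 0.17). Pdgfra also stands in the fibroblast list and Pdgfrb in the pericyte list of markers.

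Of 8 tested FGF co-receptors and binding proteins, 2 were higher, 2 lower and 4 did not pass. The adhesion molecule gene Ncam1 rose from 38.8 ± 6.62 to 75.5 ± 14.5 CPM (log2 fold change 0.95, SE 0.14), and Flrt2, which encodes a membrane protein with leucine-rich repeats, rose from 19.2 ± 2.36 to 52.2 ± 16.5 CPM (1.45, SE 0.21). Flrt1 fell from 31.4 ± 3.96 to 21.5 ± 2.31 CPM (-0.54, SE 0.14), and Cdh2, N-cadherin of the intercalated disc, had a log2 fold change of -0.28 (SE 0.08).

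Of 21 heparan sulphate genes 4 were higher and none lower, with a median log2 fold change of 0.28. Both extracellular endosulphatase genes were among them: Sulf2 at 0.78 (SE 0.10) and Sulf1 at 0.81 (SE 0.13). Sdc2, a syndecan, had a log2 fold change of 0.51 (SE 0.12) and Gpc6, a glypican, of 0.44 (SE 0.11).

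Of 18 genes for shedding and turnover of EGF-type ligands and receptors, 4 were higher and 2 lower, with a median of 0.19. The smallest adjusted p was that of Timp3, which encodes a metalloprotease inhibitor and not a sheddase and rose from 143 ± 13.7 to 236 ± 12.3 CPM (log2 fold change 0.73, SE 0.09). Among the ADAM proteases, Adam12 rose from 1.06 ± 0.73 to 6.22 ± 3.27 CPM (2.55, SE 0.59), Adam9 had a log2 fold change of 0.36 (SE 0.08) and Adam19 of -0.44 (SE 0.09).

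Of the 26 tested adaptor, MAPK and PI3K genes 2 were higher and 1 lower, with a median of -0.05. The 2 higher ones encode adaptors, Shc1 (log2 fold change 0.60, SE 0.10) and Gab2 (0.34, SE 0.09), and the lower one, Sos1 (-0.27, SE 0.09), encodes an exchange factor for Ras. Plcg1, phospholipase C gamma, had a value of 0.26 (SE 0.09) that did not pass (adjusted p = 0.0607 by edgeR).

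Of 21 feedback inhibitors and response genes 8 were higher and 1 lower, with a median of 0.30. The immediate early gene Egr1 rose from 26.3 ± 3.43 to 54.0 ± 24.9 CPM (log2 fold change 1.03, SE 0.20) and Myc from 3.77 ± 1.20 to 11.1 ± 5.88 CPM (1.52, SE 0.32). Il17rd, which encodes an inhibitor of FGF receptor signalling, had a log2 fold change of 1.18 (SE 0.25), and Etv5, an ETS factor induced by FGFs, of 0.81 (SE 0.18). The lower gene was Dusp5, a phosphatase of ERK, at -0.95 (SE 0.26), named here after its value was seen. The 5 genes of the 6 lists with an unadjusted p under 0.05 in MI+UA versus MI are named here after their values were seen. Their log2 fold changes were -0.72 for Hpse (unadjusted p = 0.00375 by edgeR), -0.75 for Myc (0.0153) and -0.37 for Spry4 (0.0173). For Errfi1 the value was -0.54 (0.0456) and for Flrt1 0.29 (0.0472), and none of the 5 passed after adjustment.

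**Figure D5:**
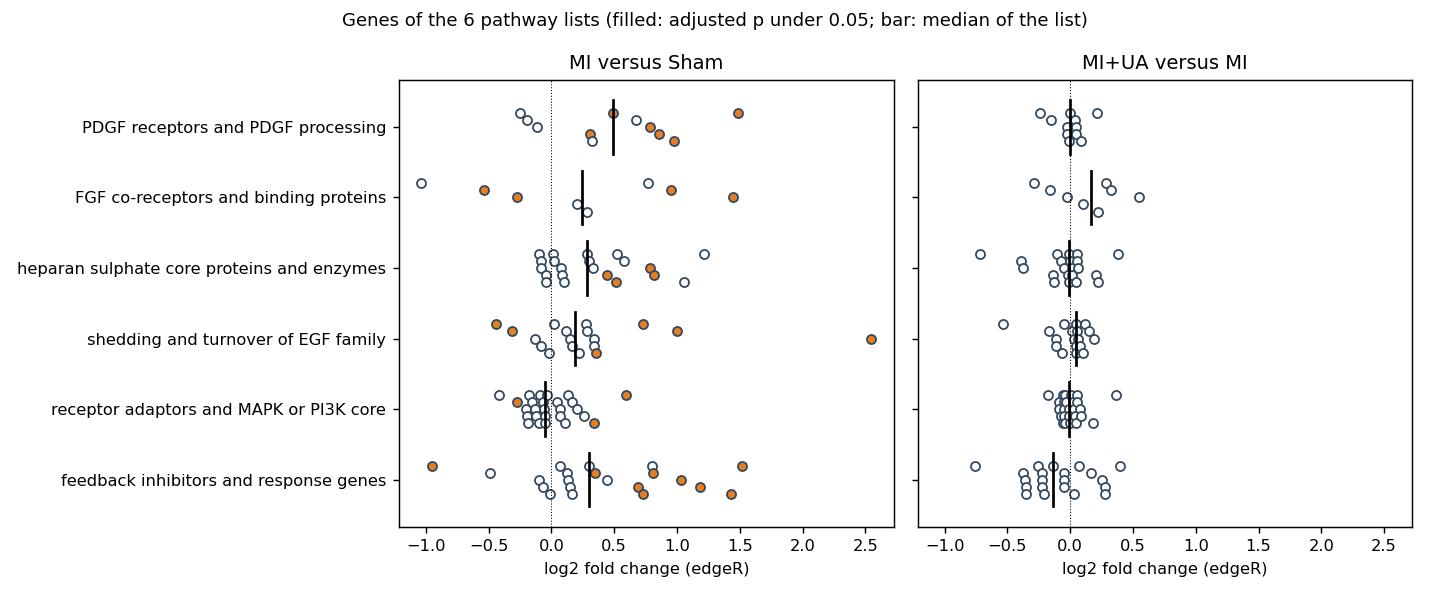
Log2 fold changes of the 105 tested genes of the 6 lists (points) in MI versus Sham on the left and MI+UA versus MI on the right, with the median of each list as a bar. Filled points passed an adjusted p of 0.05: on the left 26 lie above 0 and 6 under it, and on the right there are none.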

How the data were processed

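Counts of reads per gene were deposited by the authors for 12 rat hearts in 1 table. Per the labels and the submitters' processing notes, reads from paraffin-embedded tissue were aligned with STAR 2.6.1c to mRatBN7.2 and counted with HTSeq, and MultiQC 1.8 was run. The labels give the molecule as polyA RNA while the study's methods describe removal of ribosomal RNA, and the strand setting of the counting is not given in the sources used here. The 5 summary rows of the counter, 51.7% to 57.1% of its total per heart, were left out. All 12 sample columns were used, and 1 library that the study excluded was not analysed here.

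Genes with at least 10 reads in total were fitted with edgeR 4.0.16 (R 4.3.3, TMM, glmQLFit and glmQLFTest), all 3 groups in 1 model without covariates, and p-values were adjusted by Benjamini-Hochberg over all 18182 genes with a threshold of 0.05. Standard errors were taken from the log2 fold change and its F statistic. Log2 CPM used a prior count of 1. Pair ratios were compared by exact permutation over rats, adjusted over 18 tests. DESeq2 1.42.0, other filters, other scalings, single groups of 2, rats left out and another group for rat 66 were the alternatives, and the steps were tested on simulated data. Pairs of replicates differed beyond counting noise (chi-square per degree of freedom 1.95 to 17.0), so each heart was counted once. The rats are separate animals, and floors cover counting error only.

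The members, lists, markers and tests were chosen with earlier results of these data known. Every rat's value is given for members called in any comparison, members with a mean of at least 1 CPM whose groups did not overlap, and the 9 receptors. From each list the 4 genes with the smallest adjusted p in MI versus Sham are named. Protein sequences were not used here. Figures were drawn with matplotlib 3.10.9.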

Additional observations from a re-analysis of the deposited data

Results flagged for a closer look

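Each group of 4 rats was searched for 1 rat far from the other 3, over the log2 CPM of the members given for every rat and the 6 pair ratios. Of 63 groups searched 2 stood out, and chance alone gives about 1 in 20, or 3.15 of 63. Erbb2 was lowest in MI rat 57, at a log2 CPM of 2.36 against 2.73 to 2.80 in the other MI rats, with a gap that took up 0.853 of the range of the group. Fgfrl1 was highest in MI rat 36, at 2.32 against 1.90 to 1.95, with a gap of 0.882 of the range. Without rat 57 the log2 fold change of Erbb2 in MI versus Sham was -0.33 and without rat 36 that of Fgfrl1 was 0.55, and neither passed the test by edgeR in any fit with 1 rat left out.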

How the results depend on the processing

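The members called in MI versus Sham numbered 7 in the reported fit, beside 5.82% of all genes higher and 5.53% lower. They numbered 6 to 8 under the other tests, filters, scalings and groupings, beside 9.81% to 16.1% of all genes in either direction. With 1 rat left out they numbered 5 to 8, beside 8.06% to 12%. Those called in MI+UA versus MI numbered 0 throughout. In MI+UA versus Sham the count of 2 depended on the settings. It was 4 with DESeq2 (beside 10.6% of all genes) and 4 with only the 2 groups compared in the fit (9.78%). It was 5 with filterByExpr (13.8%), 5 with a minimum of 1 read (8.41%) and 6 with rat 66 counted in MI (10.1%). With 1 rat left out it was 0 to 6, beside 6.36% to 10.4% of all genes. Of these fits, the count was 0 without rat 12, 1 without rat 32, 38, 58 or 64 and 2 without rat 29, 36 or 61. It was 3 without rat 89, 4 without rat 17, 5 without rat 57 and 6 without rat 66. Scaling by DESeq2 size factors or without mitochondrially encoded genes moved the median log2 fold change of all genes by at most 0.011.

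No paired analysis was possible because each rat belongs to 1 group and the groups share no replicate number. Some values in MI+UA versus MI, none of which passed the test, changed sign, among them Erbb3 at 0.43. With rat 66 counted in MI these were Fgf14 (0.041), Fgfr4 (0.29), Fgfr3 (0.049), Fgfrl1 (0.12), Pdgfd (0.0049) and Fgf13 (-0.10). With 1 rat left out the log2 fold change ranged from -0.15 to 0.030 for Fgf1, -0.14 to 0.083 for Fgfrl1, -0.27 to 0.098 for Fgfr3, -0.20 to 0.048 for Pdgfd, -0.059 to 0.67 for Erbb3, -0.085 to 0.41 for Tgfa, -0.024 to 0.24 for Erbb2 and -0.57 to 0.053 for Fgfr4. In MI versus Sham that of Fgfr4 ranged from -0.87 to 0.28. The pair ratio of Hbegf to Egfr, at 0.03 in MI+UA versus MI, went to -0.27 with rat 66 counted in MI and ranged from -0.15 to 0.26 with 1 rat left out, and that of Fgfr4 to Fgfr1, at 0.01, went to -0.047 from counts plus 1 and ranged from -0.38 to 0.28. The cause was not tested. Depth limits the 10 tested members under 1 CPM most, whose standard errors reach 1.25 on the log2 scale.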
